A study of Mus musculus with 48 samples.

Results

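The red cell miRNAs miR-451a, miR-144-3p, miR-144-5p and miR-486a/b-5p were followed through 48 small RNA libraries of C57BL/6 mice in a model of allergic asthma. They were taken by name, as the entries mmu-miR-451a, mmu-miR-144-3p, mmu-miR-144-5p and mmu-miR-486a-5p|mmu-miR-486b-5p, and are 4 of the 1409 entries of the deposited miRNA count tables. All 4 had counts in each of the 4 kinds of sample. The samples were lavage fluid (the lungs were washed with 1 ml of saline and the supernatant kept after 5 minutes at 500 g), lavage cells (the pellet of that spin), serum and brushings of lung epithelium. There were 7 allergic, 4 immunized and 3 untreated libraries each of fluid, cells and serum, and 3, 2 and 1 of brushings. Allergic mice were injected intraperitoneally each week with 50 ug ovalbumin in alum, for 3 to 4 weeks, and after a gap of 7 days aspirated 50 ug ovalbumin into the airway on 3 days. Immunized mice had the same injections but 20 ul of saline in the airway, and untreated mice had nothing. Both treated groups were sampled on day 4 after the first airway dose. Non-allergic stands for all immunized and untreated libraries. The labels give neither age nor sex of the mice.

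miRNAs are short RNAs, cut from a hairpin precursor, that guide a protein complex to messenger RNAs through the seed near their 5′ end. miR-144 and miR-451a are made from 1 transcript that GATA1 switches on as red cells form, and both are kept in mature red cells, which have no nucleus. miR-451a is unusual in that its hairpin is too short for Dicer and is cut by Argonaute 2 instead. miR-486 lies in the gene of ankyrin 1, a protein of the red cell membrane skeleton, and is also made in muscle. Red cells broken during sampling release these miRNAs into fluid or serum, so the ratio of miR-451a to miR-23a-3p, which red cells hold at a low level, is in use as an index of hemolysis.

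The mature sequences of miR-451a and both arms of miR-144 are shown because every count is a count of one of them, with the seed, bases 2 to 8, in capitals. The hairpins are shown because the arms of miR-144 are compared further on; there the mature parts are in capitals. They are from RefSeq (GRCm38.p6), which held 3 of the 4.

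miR-451a: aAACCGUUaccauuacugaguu
miR-144-3p: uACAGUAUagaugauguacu
miR-144-5p: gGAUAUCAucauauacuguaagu
Mir451a hairpin: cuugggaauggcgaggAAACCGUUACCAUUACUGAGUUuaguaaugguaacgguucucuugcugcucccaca
Mir144 hairpin: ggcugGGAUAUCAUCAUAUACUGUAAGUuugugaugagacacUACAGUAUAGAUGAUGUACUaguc

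The seeds of these 3 miRNAs differ from each other, and none of the other mature miRNAs among the 1679 in the table shares any of them. In the Mir451a hairpin of 72 bases the mature miRNA fills positions 17 to 38. The longest unbroken stem, of 16 base pairs, joins positions 18 to 33 with positions 40 to 55, so the mature sequence runs 5 bases past its arm of the stem into and round the loop. The Mir144 hairpin of 66 bases carries a mature miRNA on each arm, the 5p arm at positions 6 to 28 and the 3p arm at positions 43 to 62.

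Mir144 lies at chr11:78073005-78073070 and Mir451a at chr11:78073170-78073241, both on the plus strand of mm10, with 99 bases between the hairpins. In the GENCODE annotation neither overlaps a gene other than Mir451b, which is annotated on the opposite strand of Mir451a, and the nearest protein-coding gene is Eral1, 306 and 135 bases away. Mir486 lies at chr8:23142555-23142682 on the plus strand in an intron of Ank1, with Mir3107, the other source of this mature sequence, at chr8:23142573-23142662 on the minus strand. The counting did not separate these copies, so miR-486a/b-5p is 1 value for both.

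Levels are given as CPM, the counts of a miRNA per 1000000 miRNA counts of its library, and are shares rather than amounts, so a member can differ because other RNAs differ. Library totals ranged over 135710 to 561797 counts for fluid, 43083 to 960784 for cells, 137631 to 2738221 for serum and 113000 to 654155 for brushings, so that 3 counts are worth 1.10 to 69.6 CPM. The 95% Wilson interval of a miR-451a share was at most 0.586 percentage points wide, which covers counting error only. In bulk samples, fewer cells of a type and less RNA per cell cannot be told apart. Libraries were made in 3 sets: all untreated libraries were in set 2 beside allergic libraries 1 to 3, and immunized libraries were in sets 3 and 4 beside the other allergic libraries. Fits therefore held the set as a term, allergic against untreated rests on set 2, and immunized and untreated libraries were never in the same set. A library of serum came from 1 mouse and one of brushings from 1 to 3 pooled mice. For fluid and cells the number of mice is not stated, and p-values measure only the spread between libraries, which may be technical. Allergic libraries 2 and 6 of both fluid and cells, and untreated libraries 2 and 3 of the cells, stood above the others of their kind in all 4 members, and results that rest on them are also given without them.

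Across the 4 kinds of sample the members ranged from a trace to most of the library. Together they took 1.26% to 14.9% of the counts of allergic fluid libraries, with a median of 1.53%, against 0.268% to 1.88% and a median of 0.884% in non-allergic fluid. In brushings they took 0.787%, 3.03% and 17.1% of the allergic libraries, against 0.177%, 0.265% and 0.732% of the non-allergic ones. In lavage cells the share was 5.53% to 50.6% in allergic libraries, median 18.1%, and 8.15% to 50.9% in non-allergic ones, median 16.7%. Serum had the highest shares, 21.9% to 66.7% in allergic libraries, median 45.5%, and 29.4% to 70.5% in non-allergic ones, median 51.3%. miR-451a made up most of each of these sums.

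**Figure D1:**
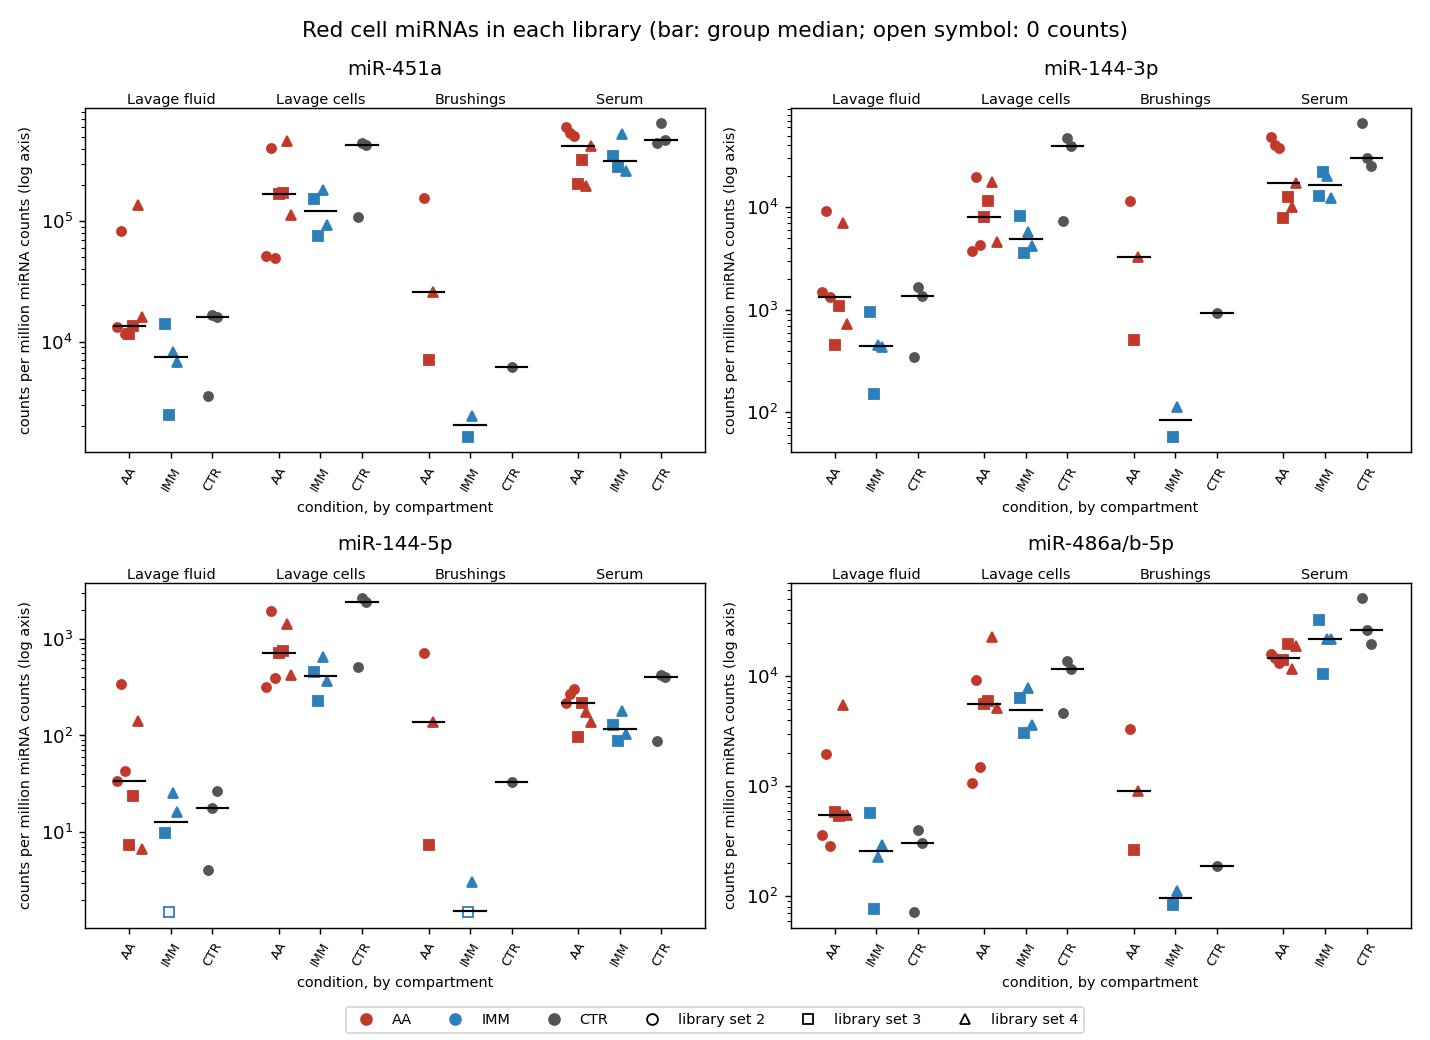
Level of each member in every library, in CPM on a log scale, with lavage fluid, lavage cells, brushings and serum side by side. Points are single libraries, coloured by condition, with allergic libraries left of immunized and untreated ones. Bars mark medians, and an open symbol marks a library without counts of that member. miR-451a lies between 2449 and 136662 CPM in fluid but between 196830 and 648343 CPM in serum, and miR-144-5p is the member with a higher median in lavage cells than in serum.

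In non-allergic mice the levels followed the order serum, lavage cells, lavage fluid and brushings for 3 of the members. miR-451a had a level of 9680 ± 5911 CPM in fluid (SD, n = 7), 3407 ± 2423 CPM in brushings (SD, n = 3), 211905 ± 158917 CPM in cells (SD, n = 7) and 424237 ± 139129 CPM in serum (SD, n = 7). All 7 fluid libraries lay below all 7 cell libraries and all 7 serum libraries, whereas cells and serum overlapped. In edgeR's quasi-likelihood test over the 24 non-allergic libraries, miR-451a was lower in fluid than in serum (log2 fold change -6.32, SE 0.61, adjusted p = 7.91e-09) and lower in fluid than in cells (log2 fold change -4.62, SE 0.57, adjusted p = 6.42e-07; -3.81 without untreated cell libraries 2 and 3). All 4 members were lower in both contrasts, beside 77% of the 356 entries that passed in either direction between fluid and serum and 68.3% between fluid and cells, so most entries set these samples apart. Lower entries alone were 41.6% and 30.3% of those tested. Fluid and brushings, the neighbours at the low end of the order, did not differ beyond the test in any member (log2 fold changes 0.61 to 1.54, adjusted p = 0.201 to 0.842), where 11.2% of entries passed.

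Lavage cells and serum, the neighbours at the high end, split the members. miR-451a was lower in cells than in serum (log2 fold change -1.69, SE 0.50, adjusted p = 0.00553), and so were miR-144-3p (-1.54, adjusted p = 0.0212) and miR-486a/b-5p (-2.41, adjusted p = 0.000286), in a contrast where 68% of entries passed, 39.9% lower and 28.1% higher in cells. miR-144-5p, the other strand of the miR-144 hairpin, was higher in cells than in serum (log2 fold change 1.56, SE 0.52, adjusted p = 0.0103, edgeR's quasi-likelihood test). Its levels were 449, 225, 649 and 367 CPM in immunized cells and 511, 2617 and 2397 CPM in untreated cells, against 129, 88.3, 177 and 104 CPM in immunized serum and 87.2, 419 and 400 CPM in untreated serum. The untreated cell libraries 2 and 3 were the highest, and the 2 groups overlapped. The call of miR-144-5p was lost without a filter on low counts (adjusted p = 0.0778) and without untreated cell libraries 2 and 3 (0.68, adjusted p = 0.258), where miR-451a was at -2.50, miR-144-3p at -2.52 and miR-486a/b-5p at -3.09; these libraries were removed for their high levels, which lowers the cells, and no call is read from it.

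In allergic mice fluid again lay below cells and serum in all 4 members. Between fluid and serum miR-451a had a log2 fold change of -3.87 (SE 0.85, adjusted p = 0.000466), miR-144-3p of -3.46 (adjusted p = 0.000748), miR-144-5p of -1.79 (adjusted p = 0.0415) and miR-486a/b-5p of -4.20 (adjusted p = 0.000186), where 76.5% of 378 entries passed and 37.3% were lower. The call of miR-144-5p in this contrast was lost without the filter on low counts (adjusted p = 0.0607), with total-count scaling (-1.45, adjusted p = 0.0555) and in 9 of 24 omissions of 1 library. Without allergic libraries 2 and 6 of fluid and cells, miR-451a was at -5.22, miR-144-3p at -4.87, miR-144-5p at -3.61 and miR-486a/b-5p at -5.49. Leaving out these high libraries lowers the fluid, and no call is read from it. Between fluid and cells the log2 fold changes ran from -4.06 for miR-144-5p to -2.49 for miR-144-3p, and all 4 passed beside 74.1% of entries, 32.3% lower alone. Between cells and serum, where 66.9% of entries passed and 33.1% were higher, miR-144-5p was the member that passed (log2 fold change 2.26, SE 0.73, adjusted p = 0.0105), again higher in cells, and the others did not (-1.27 to -0.90, adjusted p = 0.152 to 0.320). With condition and number as a block miR-451a (-1.91, adjusted p = 0.0419) and miR-486a/b-5p (-2.24, adjusted p = 0.00951) passed there too. Without allergic libraries 2 and 6 of fluid and cells, the values were -2.10 for miR-451a, -1.95 for miR-144-3p, -2.53 for miR-486a/b-5p and 1.14 for miR-144-5p, whose adjusted p was then 0.117; the omission of the highest libraries lowers the cells, and no call is read from it. Between fluid and brushings of allergic mice no member passed (adjusted p = 0.391 to 0.937), where 16.9% of entries did. There miR-144-5p was at -1.36, and at -3.18 (adjusted p = 0.0223) without allergic libraries 2 and 6 of fluid and cells. That omission of the highest fluid libraries lowers the fluid, and no call is read from it.

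Whether the step between 2 kinds of sample differed between allergic and non-allergic mice was tested as an interaction. The step from serum to fluid was smaller in allergic mice for miR-486a/b-5p, by 3.04 on the log2 scale (SE 0.96, adjusted p = 0.0435), beside 7.99% of 413 entries that passed. The other members had differences of 2.34 for miR-451a (adjusted p = 0.164), 2.42 for miR-144-3p (adjusted p = 0.164) and 2.80 for miR-144-5p (adjusted p = 0.104), none of which passed. That call did not hold under median-ratio size factors (adjusted p = 0.0507), with the members left out of the scaling (0.0997), without the filter (0.277) and when any of 36 of the 48 libraries was left out. The difference was 1.62 without allergic libraries 2 and 6 of fluid and cells (adjusted p = 0.320). The steps from cells to fluid (adjusted p = 0.129 to 0.253) and from serum to cells (adjusted p = 0.488 to 0.805) differed in no member, where 15.7% and 27.8% of entries passed.

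The 2 strands of the miR-144 hairpin were present in different proportions in lavage cells and serum, with fluid between them. The ratio of the 3p count to the 5p count, each with 0.5 added, needs no scaling between libraries. In lavage cells it had a geometric mean of 11.7 in allergic libraries (10.3 to 15.1, n = 7) and 14.2 in non-allergic ones (8.78 to 18.3, n = 7). In lavage fluid it was 42.9 in allergic libraries (26.7 to 94.4) and 49.7 in non-allergic ones (16.7 to 87.3). In serum it was 105 in allergic libraries (56.7 to 221) and 141 in non-allergic ones (63.1 to 725). Every cell library thus lay below every serum library, in allergic and in non-allergic mice alike. How many other hairpins have strand ratios separated in this way was not counted. Fluid lay between, above the cells in 7 of 7 allergic and 6 of 7 non-allergic libraries.

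The difference in this ratio was -3.17 on the log2 scale between allergic cells and allergic serum and -3.31 between non-allergic cells and non-allergic serum, and it was of the same sign in each library set. Between fluid and cells it was 1.88 in allergic and 1.81 in non-allergic mice. An exact two-sided permutation test within library sets gave p = 0.00278 for each of these 4, which is the smallest its 720 arrangements allow, and an adjusted p of 0.0208 over the 30 ratio tests made. Between fluid and serum the ratio differed by -1.29 in allergic mice (exact permutation, adjusted p = 0.0417) and by -1.50 in non-allergic mice (exact permutation, adjusted p = 0.0667), and both cross the threshold with another pseudocount; the allergic call was lost in 12 of 14 omissions of 1 library. The 5p strand had 12 counts in the serum library of 725, and at most 9 counts in a non-allergic fluid library, so fluid ratios carry wide counting error; an immunized fluid library with 0 counts of the 5p strand has its ratio of 87.3 from the pseudocount. In the brushings, which were not tested, the ratio was 16.0, 60.8 and 23.3 in the allergic libraries and 65.0, 29.4 and 26.7 in the immunized and untreated ones.

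**Figure D2:**
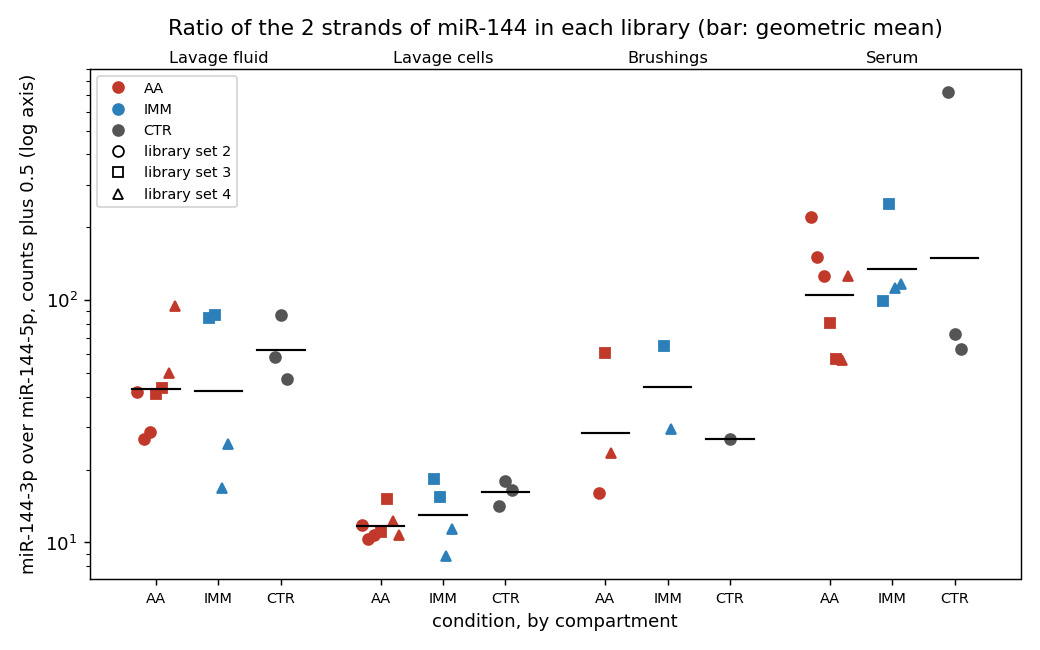
Ratio of miR-144-3p to miR-144-5p counts in every library (log axis, 0.5 added to each count) by kind of sample, with allergic libraries left of non-allergic ones and bars at geometric means. Cell libraries lie between 8.78 and 18.3 and serum libraries between 56.7 and 725.

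The proportions among the other members varied less. miR-144-3p amounted to 0.0726 of miR-451a in allergic fluid against 0.0545 in allergic serum (geometric means, n = 7 each), a log2 difference of 0.41 (exact permutation, adjusted p = 0.0417), and the difference of 0.38 in non-allergic mice did not pass (exact permutation, adjusted p = 0.263). miR-486a/b-5p amounted to 0.0332 of miR-451a in allergic fluid against 0.0412 in allergic serum, a difference of -0.31, and to 0.0285 in non-allergic fluid against 0.0581 in non-allergic serum, a difference of -1.03; both passed (exact permutation, adjusted p = 0.0417). The call of miR-144-3p was lost in 8 of 14 omissions of 1 library, and those of miR-486a/b-5p in 10 of 14 in allergic and 8 of 14 in non-allergic mice. Relative to miR-451a, miR-486a/b-5p was thus lower in fluid than in serum, which shows unequal levels rather than which of the 2 differed. None of the ratios between members differed between allergic and non-allergic libraries of the same kind of sample (exact permutation, adjusted p = 0.139 to 0.899).

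Allergic lavage fluid had more of each member on average than fluid of the other groups, with 2 of its 7 libraries far above the rest. miR-451a had a lowest level of 11539, a median of 13475 and a highest level of 136662 CPM in allergic fluid, against 14017, 2449, 8141 and 6809 CPM in immunized fluid and 3557, 16728 and 16063 CPM in untreated fluid. Allergic libraries 6 (136662 CPM) and 2 (82447 CPM) stood above all 7 non-allergic libraries, and the other 5 lay below the highest untreated library. The means were 40707 ± 49589 CPM in allergic fluid and 9680 ± 5911 CPM in non-allergic fluid (SD, n = 7 each). The log2 fold change of miR-451a was 1.97 against untreated fluid (SE 1.18, adjusted p = 0.232) and 2.18 against immunized fluid (SE 1.14, adjusted p = 0.259), and neither passed edgeR's quasi-likelihood test. Without allergic libraries 2 and 6 these log2 fold changes of miR-451a were 0.34 (adjusted p = 0.729) and 0.90 (adjusted p = 0.452). These libraries were left out for their high levels, which lowers allergic fluid, and no call is read from it.

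Within the library sets miR-451a was higher in allergic fluid by 1.24 on the log2 scale in set 2, by 1.09 in set 3 and by 2.65 in set 4, as ratios of geometric means, and the groups overlapped in sets 2 and 3. miR-144-3p had levels of 449, 1319 and 9103 CPM (lowest, median, highest) in allergic fluid, against 958, 150, 450 and 429 CPM in immunized and 350, 1682 and 1359 CPM in untreated fluid. miR-486a/b-5p had 288, 546 and 5425 CPM in allergic fluid, against 568.1, 77.0, 227 and 294 CPM in immunized and 72.3, 404 and 306 CPM in untreated fluid. In both, libraries 2 and 6 were again the highest of the allergic group and the groups overlapped. Their fold changes did not pass against untreated (log2 2.22 and 2.14, adjusted p = 0.182 and 0.197) or immunized fluid (log2 2.03 and 2.39, adjusted p = 0.302 and 0.220). They were at 0.62 and 0.59 against untreated and at 0.67 and 1.00 against immunized fluid without allergic libraries 2 and 6.

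miR-144-5p was the 1 member of 4 that passed in a comparison of fluid between groups, against untreated mice, in a contrast where 28.2% of 294 entries passed and 16.3% were higher. It had levels of 6.63, 33.5 and 339 CPM in allergic fluid, against 9.74, 0, 25.2 and 16.0 CPM in immunized and 4.02, 18.0 and 26.6 CPM in untreated fluid. These rest on 1 to 70 counts in allergic and 0 to 9 counts in non-allergic libraries. The 3 allergic libraries of set 2 lay above its 3 untreated libraries, with a log2 fold change of 3.47 (SE 1.13, adjusted p = 0.0359, edgeR's quasi-likelihood test). Other entries separated in this way in set 2 were not counted. The call was lost without the filter on low counts (adjusted p = 0.218), with limma on the authors' RPM values (adjusted p = 0.130), and when allergic library 2 or any of the 3 untreated libraries was left out, with fold changes of 1.51 to 3.90 over all 14 omissions. Against immunized fluid its log2 fold change was 2.07 (adjusted p = 0.245), where 5.44% of entries passed and none of the 4 members did. Immunized and untreated fluid, linked only through the allergic libraries, differed in no member (adjusted p = 0.719 to 0.929, 1.02% of entries called).

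With all 7 non-allergic libraries set together against the 7 allergic ones, a comparison added after the data were seen, miR-486a/b-5p (log2 fold change 2.28, adjusted p = 0.0379), miR-144-3p (2.14, adjusted p = 0.0497) and miR-451a (2.09, adjusted p = 0.0497) passed by a narrow margin, beside 31.7% of 284 entries. None of them passed without allergic libraries 2 and 6. There miR-486a/b-5p was at 0.85 (adjusted p = 0.203), miR-144-3p at 0.66 (adjusted p = 0.323) and miR-451a at 0.68 (adjusted p = 0.283). These libraries were left out for their high levels, which lowers allergic fluid, and no call is read from it. miR-144-5p was removed by the filter both with and without them.

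**Figure D3:**
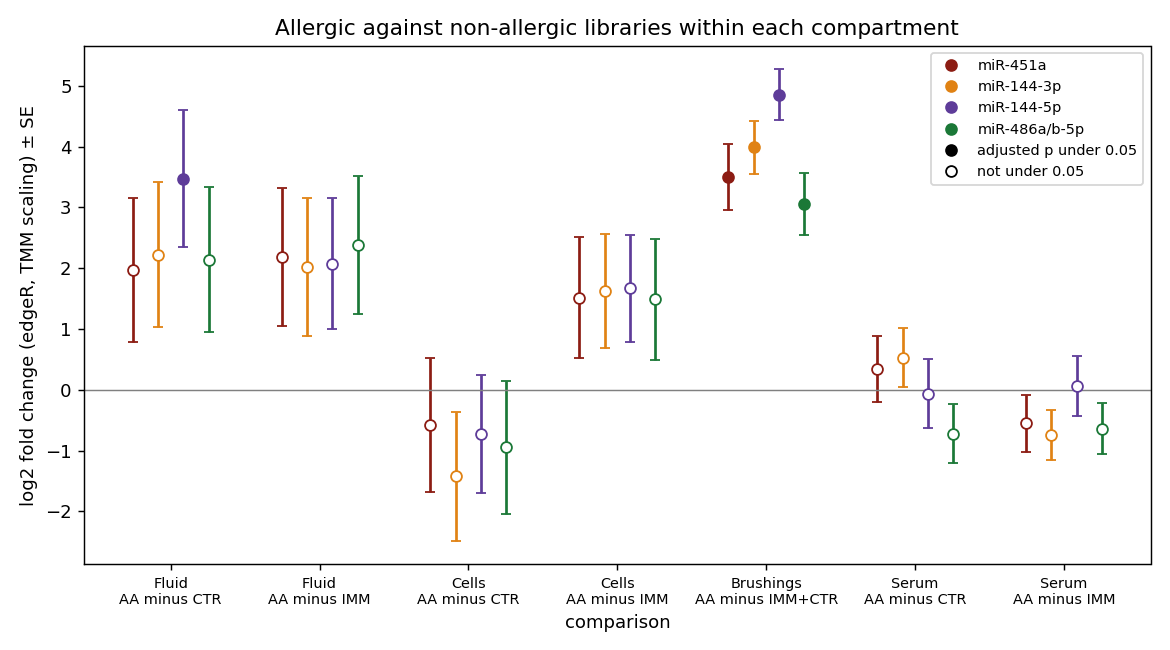
Log2 fold change of each member (points) with its standard error (bars) from edgeR's quasi-likelihood fits. Fluid, cells and serum are shown for allergic over untreated and allergic over immunized libraries, and brushings for allergic over non-allergic ones. Filled points passed at an adjusted p under 0.05. The 4 brushing values, 3.06 to 4.85, and miR-144-5p in fluid against untreated mice, 3.47, are the ones that passed.

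Lavage cells showed a wide spread of the members within every condition and no difference that passed between conditions in the fit of all libraries. miR-451a had levels of 49105, 166997 and 463789 CPM (lowest, median, highest) in allergic cells, against 151582, 74705, 179646 and 92365 CPM in immunized and 107815, 445967 and 431255 CPM in untreated cells. Allergic libraries 6 and 2 (463789 and 405347 CPM) and untreated libraries 2 and 3 were more than any other cell library, so high and low libraries occurred in both groups. The log2 fold change of miR-451a was -0.57 against untreated cells (SE 1.10, adjusted p = 0.683) and 1.52 against immunized cells (SE 0.99, adjusted p = 0.245). None of the 4 passed in either comparison, where 39.5% and 38.4% of 258 entries did. Without allergic libraries 2 and 6 the values against untreated cells were -2.74 for miR-451a, -3.02 for miR-144-3p, -2.44 for miR-144-5p and -2.98 for miR-486a/b-5p (adjusted p = 0.00736 to 0.0279), but these libraries were removed for their levels while the high untreated ones were kept, and no call is read from it.

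The other members of the cells followed. miR-144-3p had levels of 3753, 7981 and 19879 CPM in allergic, 8253, 3540, 5718 and 4183 CPM in immunized and 7381, 46912 and 39635 CPM in untreated cells. miR-144-5p had 315, 720 and 1922 CPM in allergic cells, against the immunized and untreated values given above. miR-486a/b-5p had 1062, 5516 and 22780 CPM in allergic, 6283, 3036, 7708 and 3584 CPM in immunized and 4573, 13762 and 11519 CPM in untreated cells. Allergic and non-allergic libraries overlapped in all 3. Adjusted p-values were 0.302 to 0.570 against untreated and 0.153 to 0.251 against immunized cells (edgeR's quasi-likelihood test). In sets 3 and 4 alone, which hold all immunized libraries, miR-144-5p passed against immunized cells (1.68, adjusted p = 0.0403). Immunized against untreated cells had log2 fold changes of -3.05 to -2.09 (adjusted p = 0.390 to 0.559), with 0.775% of entries called.

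The same-numbered libraries of fluid and cells that were highest in miR-451a were high together. Allergic libraries 2 and 6 were the highest of their group in both, and untreated libraries 2 and 3, high in the cells, had the highest fluid levels of the non-allergic group (16728 and 16063 CPM). The labels do not say that equal numbers mark the same mouse.

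**Figure D4:**
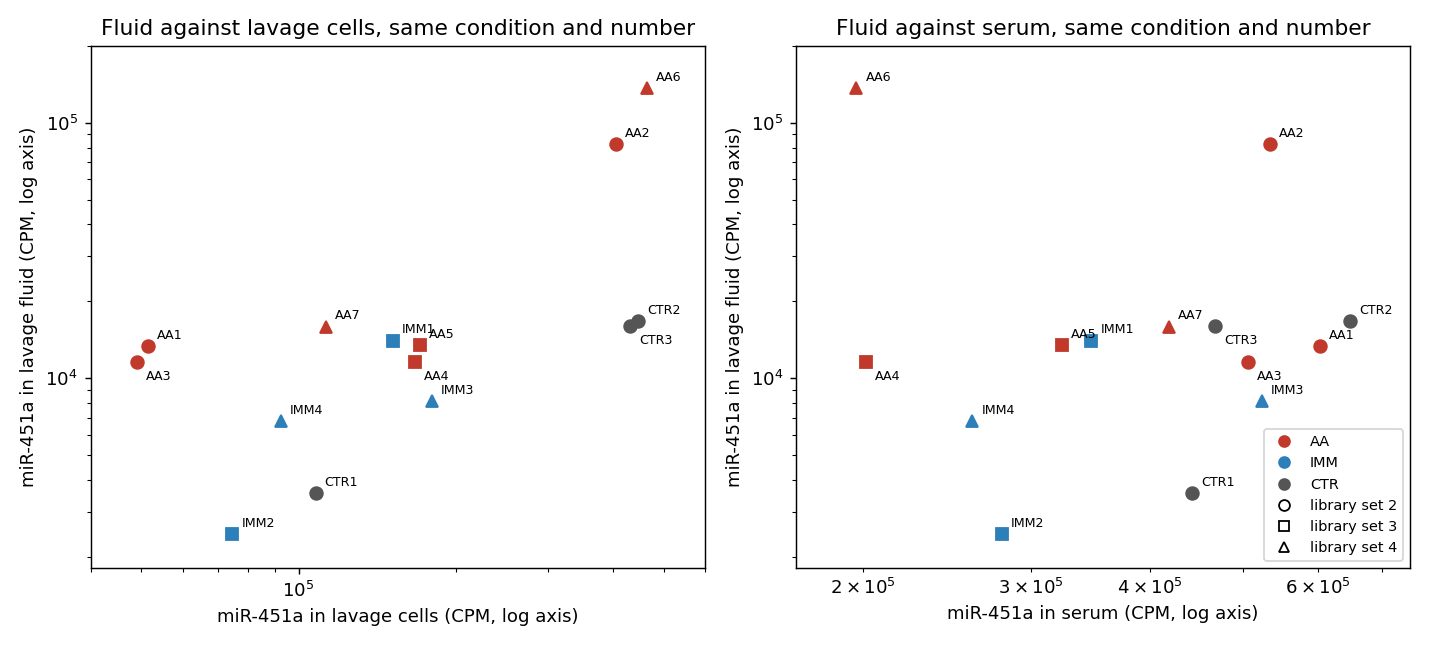
miR-451a in lavage fluid against miR-451a in the lavage cells of the same condition and number, both in CPM on log axes, with 1 point a pair of libraries. Allergic pairs 2 and 6 lie at the upper right, at 82447 and 136662 CPM in fluid and 405347 and 463789 CPM in cells.

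Serum kept high levels of the members in all groups. miR-451a had levels of 196830, 418392 and 603225 CPM in allergic serum, against 347006, 279513, 523684 and 260378 CPM in immunized and 442524, 648343 and 468211 CPM in untreated serum, and the groups overlapped. Its log2 fold change was 0.34 against untreated serum (SE 0.54, adjusted p = 0.762) and -0.55 against immunized serum (SE 0.47, adjusted p = 0.997). No member passed in either, where 9.29% and 0% of 409 entries did; 7 entries of the second comparison had an unadjusted p under 0.05. miR-486a/b-5p, with 11599, 14482 and 19678 CPM in allergic, 32040, 10394, 21417 and 21745 CPM in immunized and 50534, 26169 and 19403 CPM in untreated serum, had the log2 fold change farthest below 0 against untreated serum (-0.72, adjusted p = 0.396). miR-144-3p had 7763, 17383 and 48344 CPM in allergic, 12892, 22235, 19958 and 12229 CPM in immunized and 65857, 30387 and 25315 CPM in untreated serum. miR-144-5p, with 95.8, 219 and 299 CPM in allergic serum, was no more than 419 CPM in any serum library. Taken over all sets, these spreads also overlapped between the groups. Within sets, allergic serum lay wholly below the other group for miR-486a/b-5p in sets 2 and 4 and miR-144-3p in set 3, and overlapped elsewhere. How many other entries were separated in this way was not counted. Immunized and untreated serum differed in no member (adjusted p = 0.364 to 0.963, 3.18% of entries called).

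Brushings were the samples in which all 4 members were higher in allergic mice. miR-451a had levels of 155027, 7096 and 25956 CPM in the allergic libraries, against 1629 and 2426 CPM in the immunized libraries and 6166 CPM in the untreated one. Its mean was 62693 ± 80518 CPM in allergic and 3407 ± 2423 CPM in non-allergic brushings (SD, n = 3 each). The allergic libraries lay above all 3 non-allergic ones, although library 2 did so narrowly, and in each library set the allergic library was above its partner, by 4.65, 2.12 and 3.42 on the log2 scale. How many other entries of the brushings were separated in these ways was not counted. With the set as a term, the fold change of miR-451a was 11.3 (log2 3.50, SE 0.55, adjusted p = 0.0367, edgeR's quasi-likelihood test).

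The arms of miR-144 had the larger fold changes in brushings. miR-144-3p had levels of 11566, 505 and 3262 CPM in allergic brushings, against 57.8 and 112 CPM in immunized and 934 CPM in untreated ones, and miR-144-5p had 717, 7.40 and 139 CPM against 0, 3.06 and 33.4 CPM. In both, the allergic library of 505 and 7.40 CPM lay below the untreated one, so the groups overlapped, but every allergic library exceeded the partner of its own set. The fold changes were 15.9 for miR-144-3p (log2 3.99, SE 0.43, adjusted p = 0.0122) and 28.9 for miR-144-5p (log2 4.85, SE 0.42, adjusted p = 0.00646, from few counts in non-allergic libraries). miR-486a/b-5p had 3301, 263 and 908 CPM in allergic brushings, against 83.2 and 112 CPM in immunized and 190 CPM in untreated ones. These did not overlap, with a fold change of 8.34 (log2 3.06, SE 0.51, adjusted p = 0.0367). Other entries separated between the groups, or within each set, were not counted.

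The 4 members were thus among the 9 of 319 entries (2.82%) that passed in brushings, 8 of them (2.51%) higher in allergic mice, and their median log2 fold change was 3.74 against -0.06 for all entries tested. These calls rest on 3 pairs of libraries, and the number of entries that passed ran from 0 to 16 when 1 library was left out. With limma on the authors' RPM values, which called 0 entries, all 4 were lost (adjusted p = 0.171 to 0.195), and that of miR-451a was also lost under median-ratio size factors (adjusted p = 0.234) and with the members left out of the scaling (adjusted p = 0.315), with log2 fold changes of 3.40 to 3.54. Leaving out 1 library ended the calls of all 4 where it was allergic library 1 or 3 and those of miR-451a and miR-486a/b-5p where it was immunized library 2. Of the leukocyte miRNAs miR-142a-3p (log2 fold change 1.42) and miR-142a-5p (1.38), the strands of 1 hairpin, were higher in the same libraries (adjusted p = 0.0367 each). The others on that list, miR-150-5p and miR-223-3p, did not pass. The summed share of the 4 leukocyte miRNAs was 0.658%, 0.674% and 1.25% in allergic brushings, against 0.268%, 0.329% and 0.576% in non-allergic ones, and the part of blood or other cells in the brushings' result was not tested.

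The ratio of miR-451a to miR-23a-3p varied with miR-451a. In fluid its geometric mean was 0.941 in allergic and 0.305 in non-allergic libraries (exact permutation, p = 0.0528, adjusted p = 0.132), with 3.16 and 5.04 in allergic libraries 2 and 6. In cells it was 6.41 in allergic and 4.66 in non-allergic libraries, with 35.6 and 35.0 in allergic libraries 2 and 6 and 32.1 and 25.5 in untreated libraries 2 and 3, against 1.30 to 5.70 in the others. In serum it was 13.6 in allergic and 19.4 in non-allergic libraries. None of the 3 comparisons passed, and the part of hemolysis or bleeding in the members' levels was not tested. In brushings, not tested, it was 9.05, 0.354 and 1.41 in the allergic libraries and 0.0667, 0.105 and 0.300 in the non-allergic ones.

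A list of 13 other miRNAs that red cells hold, 12 of them in the tables, was followed for comparison. In fluid against untreated mice 6 of 9 tested were higher and 0 lower, beside 16.3% and 11.9% of all entries. They were miR-25-3p (log2 fold change 2.21, adjusted p = 0.00622) and miR-92a-3p (1.97, adjusted p = 0.000924), both of clusters of the miR-17-92 family, miR-15b-5p (1.64, adjusted p = 0.0109), miR-15a-5p (1.02, adjusted p = 0.00264), miR-484 (0.80, adjusted p = 0.0394) and miR-16-5p (0.68, adjusted p = 0.0183), edgeR's quasi-likelihood test. These are also made in many other cells, and their median of 0.80 lay below that of the 4 members, 2.18, with 0.07 for all entries. Against immunized fluid 1 of 9 was higher, miR-92a-3p (log2 fold change 1.13, adjusted p = 0.0375), beside 4.42% of all entries. The list took 8.29% to 12.1% of the counts of allergic fluid, against 7.63% to 8.98% in immunized and 7.93% to 8.58% in untreated fluid.

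In lavage cells, where no member passed, 8 of 10 of this list were higher than in immunized mice and 2 of 10 higher than in untreated mice, beside 22.1% and 21.3% of all entries. miR-363-3p (log2 fold change 5.49 and 2.96) and miR-92a-3p (1.92 and 1.61) were higher in both comparisons, and miR-25-3p (1.41), miR-15b-5p (1.33), miR-93-5p (0.93), miR-16-5p (0.78), miR-484 (0.57) and miR-185-5p passed against immunized mice. In serum 0 of 11 passed in each comparison and in brushings 0 of 9, with miR-15b-5p at 1.23 (adjusted p = 0.210). Between fluid and serum 8 of 9 of the list were lower in fluid in non-allergic mice, beside 41.6% of all entries, and 7 of 10 were lower and 1 higher (miR-15a-5p, log2 0.64) in allergic mice, beside 37.3% lower.

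Leukocyte miRNAs were read as a check of the cell pellets' label and of cells in the fluid. The 4 on the list, miR-142a-3p, miR-142a-5p, miR-150-5p and miR-223-3p, summed to 10.5% to 33.7% of the counts of allergic cells, 4.31% to 7.79% of immunized cells and 3.44% to 6.51% of untreated cells, and all 4 were higher in allergic cells than in untreated and immunized cells, beside 21.3% and 22.1% of all entries. The 7 airway epithelium miRNAs were all lower in allergic cells in both comparisons (median log2 fold changes -1.55 and -1.35), beside 18.2% and 16.3% of all entries. Against serum, 4 of 4 leukocyte miRNAs were higher in allergic cells, beside 33.1% of all entries. In non-allergic cells 1 was higher and 1 lower than in serum (median log2 fold change 0.20), beside 28.1% and 39.9% of all entries. The 4 summed to 1.79% to 5.54% of immunized serum, which overlaps immunized cells, and to 0.954% to 2.02% of untreated serum. The list thus does not set all non-allergic cells apart from serum. In fluid the 4 leukocyte miRNAs summed to 0.714% to 3.27% in allergic, 0.306% to 0.612% in immunized and 0.282% to 0.444% in untreated libraries, with 4 of 4 higher than in untreated and 2 of 4 higher than in immunized fluid, beside 16.3% and 4.42% of all entries. These shares did not overlap between allergic and other fluid, by a narrow margin (0.714% against 0.612%), whereas the summed shares of the members did. How many entries separate allergic from other fluid was not counted, so nothing is read from this contrast. miR-122-5p, a liver miRNA found in plasma, was lower in allergic than in untreated mice in fluid (log2 fold change -2.31, adjusted p = 0.0297) and in serum (-1.94, adjusted p = 0.0116), beside 11.9% and 5.38% of all entries. The endothelial miR-126a-3p (-1.92, adjusted p = 0.00651) and miR-126a-5p (-1.93, adjusted p = 0.00971) were lower in allergic than in untreated fluid, and neither passed in serum (adjusted p = 0.955 and 0.693). Against immunized mice none of these liver and endothelial miRNAs passed in fluid or serum. There miR-122-5p was at -1.52 in fluid and -0.41 in serum, and the median of the miR-126a strands in fluid was -0.77. In immunized against untreated serum miR-122-5p was also at -1.52 and did not pass.

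The miRNAs whose levels ran most like that of miR-451a were the other members. Over all 48 libraries, and of 247 entries compared, miR-144-3p (Spearman 0.979) and miR-486a/b-5p (0.972) came first, followed by miR-106b-3p (0.947), miR-93-5p (0.946), miR-25-3p (0.927), the 3p strand of miR-486 (0.922) and miR-106b-5p (0.904). miR-144-5p came 24th at 0.784. Within the 14 fluid libraries, after subtraction of set means, miR-486a/b-5p (Pearson 0.992), miR-144-3p (0.986) and miR-144-5p (0.883) were closest of 239, then miR-15b-5p (0.856), miR-16-2-3p (0.841), miR-15b-3p (0.832), miR-25-3p (0.822) and miR-338-3p (0.802). These are descriptions over libraries that share compartments and depth, and values per scaled total of the same library are not independent of each other.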

How the data were processed

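Small RNA of lavage fluid, lavage cells, serum and brushings was sequenced. Input was 20 to 65 ng of RNA, and the 3′ adapter carried 5 random nucleotides, per the labels' protocols. The authors deposited expected counts per miRNA, 1 table for each of the 3 library sets, and 4.40% of the values were not whole. Tests had been planned for whole counts, so expected counts were rounded. The deposited RPM values were used for 1 alternative. Per the submitters' processing notes, cutadapt, DESeq2 and the mm10 build were used; the sources used here give neither versions nor the aligner. Every column matched a labelled library (0 unmatched).

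Fits used edgeR 4.0.16 in R 4.3.3: filterByExpr at a minimum count of 10, TMM scaling, the library set as a term, and robust quasi-likelihood tests with Benjamini-Hochberg adjustment over all entries tested. The threshold for a call was an adjusted p under 0.05. CPM levels are counts over the library total, without TMM. The correlations of other entries with miR-451a used CPM with TMM scaling instead. SEs of log2 fold changes were worked back from the test, as the absolute log2 fold change over the square root of its F statistic. Fits over kinds of sample used the 24 non-allergic, the 24 allergic or all 48 libraries. Ratios (0.5 added to counts) were tested in Python 3.11.15 by exact two-sided permutation within sets, and correlations by permutation (100000 resamples). Alternatives included DESeq2 1.42.0, limma 3.58.1, other scalings and filters, a replicate block and omission of each library. The fits were checked on simulated data. The 4 members were fixed by name, and non-members are named as list members or as the 5 most like miR-451a with a mean of at least 50 CPM. The members and lists were chosen with earlier results of these data known.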

Additional observations from a re-analysis of the deposited data

Results flagged for a closer look

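miR-486a/b-5p differed between allergic and non-allergic mice in its step between fluid and serum, by 3.04 on the log2 scale (edgeR interaction, adjusted p = 0.0435); the call was lost under 3 other settings and without allergic libraries 2 and 6 of fluid and cells.

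A hairpin entry named mir-451b, annotated opposite Mir451a and not used in any comparison, had 3.5 counts in serum library 1 and 5.5 counts in serum library 2 of allergic mice, which is 1.63 and 3.62 CPM at their depth of 2143701 and 1518320 counts. The 4 immunized serum libraries had at most 1.0 counts (0.929 CPM) and the other 5 allergic ones at most 1.0 (1.23 CPM). The 3 untreated ones, of 137631 to 890455 counts in all, had at most 0.5 (0.562 CPM). Reads that match both strands of a hairpin were not examined.

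The gap of the highest or lowest value to its nearest neighbour was tested 48 times, each for 1 level or ratio in 1 group of 4 or 7 libraries. It flagged 0 libraries, where chance flags about 1 in 20. The same groups recur under several levels and ratios, so these tests are not independent. Such a gap cannot flag libraries that are high together, as allergic libraries 2 and 6 of fluid and cells were, so nothing is read from this count.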

How the results depend on the processing

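Of 664 values of members and ratios under another setting 631 kept their direction and side of the threshold, of 2292 with 1 library left out 2185 did, and 0 reversed; the cause of a change was not tested. For miR-451a Epith AA-nonallergic the log2 fold change was 3.53 with median-ratio size factors (adjusted p = 0.234), 3.54 with scaling without the members (0.315), 3.40 with limma on RPM (0.182) and 2.86 to 4.26 with 1 library left out. For miR-451a allergic Pellet-Serum it was -1.91 with the condition and number as a replicate block (adjusted p = 0.0419; miR-486a/b-5p -2.24, 0.00951) and -2.10 without fluid and cell libraries AA2 and AA6 (0.0256). For miR-451a Pellet AA-CTR it was -2.74 without AA2 and AA6. These omissions of high libraries lower the cells, and no call is read from them. Not every same-numbered pair correlated over 0.1 across entries (6 of 14 of fluid and cells, 1 of 14 of fluid and serum, 3 of 14 of cells and serum), so the numbers were not taken as a pairing. As a hint from the data, 13 of 14 fluid libraries correlated best with the cells of their own number. A cut of 0.1 cannot show that libraries are unpaired, so fluid and cells of 1 number may come from the same mice. The main fits and permutation tests between kinds of sample held no pairing, so their p-values ignore any that exists. In set 2 alone the replicate block gave 1.56 for miR-451a in fluid (adjusted p = 0.133) and -1.66 for miR-486a/b-5p in cells (adjusted p = 0.0320), and it changed no count of calls by over 1.5 times. The strand ratio of fluid to serum was -1.76 in non-allergic mice with a pseudocount of 1 (exact permutation, adjusted p = 0.0417) and -1.17 in allergic mice with 0.1 (0.0729); with 1 library left out it ran from -1.76 to -1.08 and from -1.50 to -1.12.

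Entries called in fluid AA-IMM were 16, against 29 without a filter, 31 with DESeq2, 9 with limma, and 0 without AA2 and AA6 or in sets 3 and 4 alone (0 to 34 with 1 library left out). Fluid IMM-CTR had 3, against 24, 17, 1 and 0 (without AA2 and AA6); cells IMM-CTR 2, against 8 without a filter, 9 with DESeq2 and 0 without AA2 and AA6. Serum AA-CTR had 38, against 20 with total-count scaling and 20 with limma; serum IMM-CTR 13, against 8, 27 with DESeq2 and 5 with limma. Brushings had 9, against 16 without a filter and 0 with limma; fluid against brushings in allergic mice 64, against 42 with total-count scaling. Interaction of fluid and serum had 33, against 15 without AA2 and AA6. Low counts of miR-144-5p in fluid, the 3 pairs of brushings and libraries AA2 and AA6 limit precision.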

Other observations

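Levels of miR-451a in fluid and cells of the same condition and number rose together over 14 pairs of libraries, a relation tested after the data were seen. Pearson's r was 0.644 (permutation p = 0.0106, adjusted p = 0.0319 over 3 relations) and Spearman's rho was 0.701 (permutation p = 0.00665, adjusted p = 0.0200). After subtraction of set means r was 0.638 (permutation, adjusted p = 0.0449), and within sets 2, 3 and 4 it was 0.514, 0.980 and 0.886, where sets 3 and 4 hold 4 pairs each. Without allergic pairs 2 and 6, the farthest from the median, r was 0.402, so the relation rests in part on them. Fluid and serum (r = -0.0521, rho = 0.209) and cells and serum (r = -0.0347, rho = 0.0154) showed no relation that passed a permutation test (adjusted p = 0.905 for r in both).

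The 5p strand of miR-486 outnumbered its 3p strand in every kind of sample. Summed over libraries there were 3940 counts of the 5p and 15 of the 3p strand in fluid, 29143 and 237 in cells, 292670 and 1777 in serum, and 1090 and 13 in brushings, which are ratios of 263, 123, 165 and 83.8.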
